A study of Mus musculus with 18 samples.

Results

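The genes described here are the 10 genes of MHC class I presentation H2-K1, H2-D1, B2m, Tap1, Tap2, Tapbp, H2-M2, H2-T23, H2-Q4 and Nlrc5. They were chosen by name, by a rule that uses no measured value, but with earlier results of these data known. They are 10 of 13393 genes with a value, and all 10 were among the 9512 genes tested. RNA was sequenced from peritoneal macrophages of C57BL/6 mice with wild-type Toll-like receptor 4 (TLR4-WT) and of knock-in mice made on that strain, in which arginine replaces 1 lysine of the receptor's TIR domain (TLR4-K730R and TLR4-K810R). The cells had been drawn into the peritoneum with thioglycolate, and were either left without LPS (control) or given 100 ng/ml LPS, the bacterial ligand of the receptor, for 6 hours, which makes 6 groups of 3 libraries. Each knock-in is present in every cell of the mouse, so macrophages and all other cells carry it, and each changes 1 amino acid, so that the level of the Tlr4 transcript does not check a label. The age of the mice, and whether the 3 libraries of a group came from separate mice, are not given in the sources used here, so the p-values below measure the spread between these libraries only.

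MHC class I molecules carry peptides from inside the cell to its surface, where CD8 T cells and NK cells read them. A heavy chain pairs with the invariant light chain, cytosolic peptides are pumped into the endoplasmic reticulum and loaded there, and interferons raise the transcription of many of these genes. In macrophages, LPS acting through TLR4 induces type I interferon, and the class I genes are among the genes known to follow it.

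Of the 10 genes, H2-K1 (chr17:33996017-34000347) and H2-D1 (chr17:35262730-35267499) encode the classical heavy chains of this strain. H2-T23 (chr17:36029773-36032855), which encodes the Qa-1 molecule, H2-Q4 (chr17:35379617-35385290) and H2-M2 (chr17:37480851-37483552) encode non-classical heavy chains. B2m (chr2:122147686-122153083) encodes the light chain, β2-microglobulin. Tap1 (chr17:34187553-34197225) and Tap2 (chr17:34203527-34216321) encode the subunits of the peptide transporter, and Tapbp (chr17:33915899-33929292) encodes tapasin, which holds the heavy chain to the transporter during loading. Nlrc5 (chr8:94434356-94527272) encodes the transactivator that acts on class I promoters. Positions are in GRCm38, and 8 of the 10 genes lie on chromosome 17.

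Class I promoters share an upstream module that is bound by NF-κB, interferon regulatory factors and the complex through which NLRC5 acts. RefSeq promoter sequences (GRCm38.p6, from 250 bases before the transcript start to 50 after it) matched 8 of the 10 genes, all but Tap2 and Nlrc5. The promoters of 4 genes are printed because their levels went different ways in the comparisons below: H2-D1 did not pass the test after LPS, B2m rose, H2-Q4 rose more, and H2-M2 was the gene that differed most between genotypes. Capitals mark the motifs that were searched on both strands.
H2-D1 (chr17:35262844-35263143, plus strand): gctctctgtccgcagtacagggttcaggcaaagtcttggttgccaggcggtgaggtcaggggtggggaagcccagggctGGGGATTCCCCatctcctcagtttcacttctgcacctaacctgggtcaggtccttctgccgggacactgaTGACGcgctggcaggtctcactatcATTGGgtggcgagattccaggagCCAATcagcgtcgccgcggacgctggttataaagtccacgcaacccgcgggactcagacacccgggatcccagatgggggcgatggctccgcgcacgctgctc
H2-Q4 (chr17:35379367-35379666, plus strand): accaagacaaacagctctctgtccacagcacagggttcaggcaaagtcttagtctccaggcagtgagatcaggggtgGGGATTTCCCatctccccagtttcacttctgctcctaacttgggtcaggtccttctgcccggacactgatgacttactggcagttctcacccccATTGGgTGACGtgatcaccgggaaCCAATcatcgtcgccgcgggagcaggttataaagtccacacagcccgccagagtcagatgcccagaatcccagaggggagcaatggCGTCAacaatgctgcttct
H2-M2 (chr17:37483505-37483804, minus strand): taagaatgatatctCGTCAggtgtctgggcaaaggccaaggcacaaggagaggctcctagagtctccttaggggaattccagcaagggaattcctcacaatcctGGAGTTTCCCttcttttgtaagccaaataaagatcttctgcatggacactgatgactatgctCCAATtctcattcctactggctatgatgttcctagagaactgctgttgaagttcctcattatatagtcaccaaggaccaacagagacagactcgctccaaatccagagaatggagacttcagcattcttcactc
B2m (chr2:122147437-122147736, plus strand): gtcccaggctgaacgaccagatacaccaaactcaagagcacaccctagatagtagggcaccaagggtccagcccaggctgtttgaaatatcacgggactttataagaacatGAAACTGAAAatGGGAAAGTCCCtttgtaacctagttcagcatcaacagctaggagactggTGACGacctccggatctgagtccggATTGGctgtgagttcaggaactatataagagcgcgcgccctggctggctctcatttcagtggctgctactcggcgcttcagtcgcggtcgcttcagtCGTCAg
The motifs were the interferon response core (GAAA, any 2 bases, GAAA), an NF-κB-like motif (GGGA, any 4 bases, CC), the CRE core (TGACG), the CCAAT box and the interferon-gamma activated site (TTC, any 3 bases, GAA). The CCAAT box was found in 8 of the 8 class I promoters, against 37.4% of 32851 mouse promoters. The CRE core was found in 6 of 8, against 20.8%, and the NF-κB-like motif in 5 of 8, against 20.7%. An exact match to the interferon response core was found in 2 of 8, B2m and H2-T23, against 3.44%. The interferon-gamma activated site was matched in 0 of 8, against 8.30%. Elements that differ from these letters were not searched, so a promoter without a match may still hold an interferon element. H2-D1 and H2-Q4 each carried the NF-κB-like motif farthest from the start and 2 CCAAT boxes nearer to it, with a CRE core before both boxes in H2-D1 and between them in H2-Q4. Where the NF-κB-like motif matched on both strands, the matches overlapped and make up a single site. H2-M2 held the same 3 kinds of motif, with the CRE core farthest from the start and on the opposite strand. In H2-D1, the most used first exon of these libraries begins 364 bases from the RefSeq start, so the printed window is not placed on it.

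Levels are given in FPKM (fragments scaled to transcript length and to the mapped fragments of the library), which allow comparison between genes. For each gene and library, FPKM were summed over first exons and over last exons, and the higher sum was taken. The number of reads behind a value is unknown. Differences are between means of log2(FPKM + 1), tested with limma over all 9512 genes, and a gene was called at an adjusted p below 0.01. H2-D1 and the other heavy chains are near-identical in sequence over long stretches, so reads could have been split between them in counting, and the counting is not stated to use strand.

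The libraries of a group correlated with r of 0.958 to 0.974 over the tested genes, and libraries of different groups with r of 0.806 to 0.973. Of 7 macrophage markers, 6 had a value, each at a mean of 1 FPKM or more in each group, and their sum was 11633 to 14785 FPKM in the control groups and 7289 to 10057 FPKM after LPS. Most of that sum was Lyz2 (5944 to 13291 FPKM over the 18 libraries). Itgam had no value in any library. The markers of B cells, T cells, NK cells and dendritic cells with a value (4 of 5, 4 of 5, 1 of 4 and 3 of 5) summed to at most 3.66 FPKM per cell type in any library, and the other listed markers had none. A pair of libraries stood apart in a class I gene: replicate 3 of LPS-treated TLR4-WT in H2-T23 and replicate 3 of LPS-treated TLR4-K730R in Tapbp. Results on the 10 genes whose call changed without them are given both ways, some of them without 1 of the 2 libraries only.

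In TLR4-WT macrophages without LPS, H2-D1 was the most abundant of the 10 genes (mean 3152 FPKM), followed by B2m (2448), H2-K1 (823), H2-T23 (309.8), Tapbp (182), H2-Q4 (69.6), Tap1 (25.9), Tap2 (25.3), H2-M2 (16.6) and Nlrc5 (5.42). In that order, Tap1 and Tap2 had overlapping libraries and the other neighbours did not overlap. The levels thus spanned the range from the transactivator to the classical heavy chains, with the transporter near the low end. After LPS, B2m stood first in each genotype (4201 FPKM for TLR4-WT, 3502 for TLR4-K730R and 2951 for TLR4-K810R), although in TLR4-K730R its libraries overlapped those of H2-D1. Tapbp stood above H2-T23 after LPS in each genotype, with overlapping libraries in TLR4-WT and TLR4-K730R, whereas H2-T23 stood above Tapbp without LPS, with overlapping libraries in TLR4-K810R only. H2-M2 and Nlrc5 exchanged places at the bottom of the order in TLR4-K810R without LPS (2.12 and 3.31 FPKM), where their libraries overlapped.

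**Figure D1:**
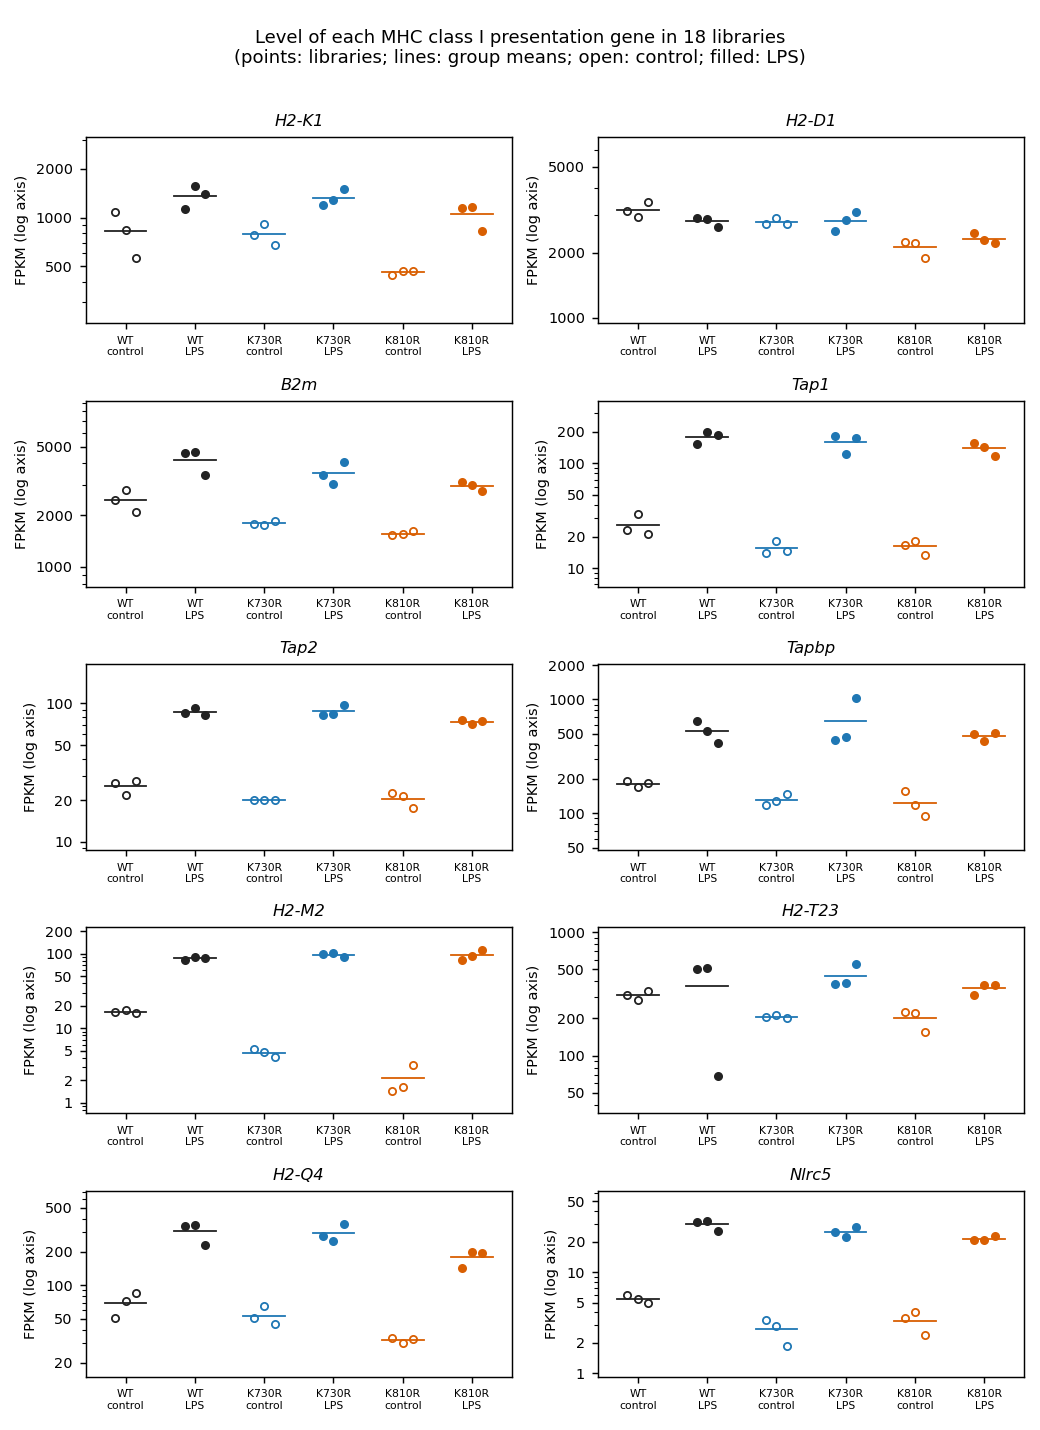
FPKM of each of the 10 genes (log axis, a separate scale per gene) in the 18 libraries, by genotype and treatment. Points are libraries, lines are group means, open points are control libraries and filled points are LPS libraries. H2-M2 without LPS lies at 15.7 to 17.7 FPKM in TLR4-WT and at 1.45 to 5.20 FPKM in the mutants, and the lone low point of H2-T23 is replicate 3 of LPS-treated TLR4-WT at 68.3 FPKM.

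The first question was how class I genes answered LPS in each genotype. In TLR4-WT, TLR4-K730R and TLR4-K810R alike, 8 of the 10 genes rose with LPS and 0 fell, and the 2 that did not pass the test were H2-D1 and H2-T23. Of all tested genes, 10.4%, 9.34% and 8.99% were called higher after LPS in the 3 genotypes. The median log2 difference of the 10 genes was 1.62, 2.12 and 1.89, against -0.27, -0.36 and -0.26 over all genes. Scaling the libraries by their median ratio moved the medians over all genes to -0.011, -0.039 and -0.031, with 8 of the 10 genes called higher in each genotype. That scaling also moved the calls over all genes, from 989 higher and 2257 lower to 1466 and 1347 for TLR4-WT, from 888 and 2503 to 1459 and 1276 for TLR4-K730R, and from 855 and 1871 to 1166 and 1098 for TLR4-K810R. The 5 neutrophil markers summed to 22.9 to 46.7 FPKM in the control libraries and 172 to 245 FPKM with LPS, and their part in the rise of class I genes was not tested. Nearly all of that sum was S100a8 (22.1 to 239 FPKM over the 18 libraries), while Camp reached at most 6.38 FPKM, S100a9 2.23, Ly6g 0.64 and Ngp 0.12, each at 0 in 7 or more libraries. In these bulk samples, fewer cells of a type and less RNA per cell cannot be told apart.

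Tap1, a subunit of the transporter, gave the largest rise of the 10 genes in TLR4-WT. Without LPS, Tap1 was at 23.4, 32.9 and 21.4 FPKM for TLR4-WT, 14.0, 18.1 and 14.6 for TLR4-K730R and 16.7, 18.3 and 13.4 for TLR4-K810R. After LPS the values were 152, 198 and 187 FPKM for TLR4-WT, 181, 124 and 175 for TLR4-K730R and 157, 144 and 118 for TLR4-K810R. Each LPS library lay above each control library of any genotype, and the LPS groups overlapped one another. The log2 difference was 2.76 ± 0.19 (SE, n = 3 against 3 libraries, here and below) in TLR4-WT, 3.27 ± 0.19 for TLR4-K730R and 3.04 ± 0.19 for TLR4-K810R, with limma adjusted p of 1.02e-08, 1.34e-09 and 3.33e-09. Tap2, its partner in the transporter, rose less. It was at 21.6 to 27.5 FPKM for TLR4-WT, 19.9 to 20.2 for TLR4-K730R and 17.5 to 22.7 for TLR4-K810R without LPS, and at 81.9 to 92.5, 82.4 to 96.8 and 71.1 to 75.5 FPKM with it. The mean FPKM of Tap2 was 3.43, 4.39 and 3.61 times higher with LPS, against 6.92, 10.3 and 8.67 times for Tap1. Without LPS the 2 subunits of the transporter were thus near each other in level, and with LPS Tap1 was the higher in each library.

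Tapasin rose with LPS in each genotype. Tapbp was at 191, 170 and 185 FPKM for TLR4-WT, 119, 129 and 147 for TLR4-K730R and 158, 118 and 95.4 for TLR4-K810R without LPS. The LPS libraries stood at 642, 527 and 411 FPKM for TLR4-WT, 436, 467 and 1024 for TLR4-K730R and 498, 431 and 502 for TLR4-K810R. The LPS libraries lay above all control libraries, and 1 library of TLR4-K730R lay far above the rest. The log2 difference was 1.50 ± 0.26, 2.17 ± 0.26 and 1.96 ± 0.26 (limma adjusted p = 0.00023, 5.82e-06 and 2.07e-05). Without the library at 1024 FPKM, the log2 difference in TLR4-K730R was 1.77.

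Nlrc5, the transactivator, was the least abundant of the 10 genes in 5 of the 6 groups. It was at 5.94, 5.39 and 4.92 FPKM for TLR4-WT, 3.39, 2.94 and 1.86 for TLR4-K730R and 3.52, 4.03 and 2.37 for TLR4-K810R without LPS. Under LPS the gene was at 31.1, 31.9 and 25.5 FPKM for TLR4-WT, 24.8, 21.9 and 27.5 for TLR4-K730R and 20.7, 20.7 and 22.9 for TLR4-K810R. The control libraries of both mutants lay below those of TLR4-WT, and all LPS libraries lay above all control libraries. The log2 rise was 2.24 ± 0.17, 2.80 ± 0.17 and 2.40 ± 0.17 (limma adjusted p = 3.15e-08, 2.28e-09 and 1.60e-08).

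B2m, the light chain, rose by less than the transporter on the log2 scale. It was at 2446, 2800.2 and 2097 FPKM for TLR4-WT, 1780.4, 1753 and 1845 for TLR4-K730R and 1537, 1544 and 1606 for TLR4-K810R without LPS. In the LPS libraries it was at 4559, 4629 and 3413 FPKM for TLR4-WT, 3422, 3031 and 4054 for TLR4-K730R and 3099, 2991 and 2764 for TLR4-K810R. The 3 control groups did not overlap, with TLR4-WT highest and TLR4-K810R lowest. The log2 rise was 0.78 ± 0.14, 0.96 ± 0.14 and 0.92 ± 0.14 (limma adjusted p = 0.000332, 4.51e-05 and 8.32e-05). With only the groups compared, the call of B2m in TLR4-WT was lost (0.0117).

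The 2 classical heavy chains parted after LPS. H2-K1 was at 1074, 834 and 560 FPKM for TLR4-WT, 776, 915 and 679.5 for TLR4-K730R and 443, 468 and 464 for TLR4-K810R without LPS. Values under LPS were 1133, 1571 and 1393 FPKM for TLR4-WT, 1199.9, 1278 and 1492 for TLR4-K730R and 1149, 1170.1 and 823 for TLR4-K810R. Within each genotype the LPS libraries lay above the control libraries. The log2 rise was 0.77 ± 0.21 in TLR4-WT (limma adjusted p = 0.00677), 0.75 ± 0.21 in TLR4-K730R (0.00772) and 1.17 ± 0.21 in TLR4-K810R (0.000304). The call in TLR4-WT was lost without replicate 2 or 3 of TLR4-WT, under control or LPS (limma adjusted p = 0.0146 to 0.0405, log2 0.52 to 0.80). The call in TLR4-K730R was lost without replicate 2 of control TLR4-WT, replicate 1 or 3 of control TLR4-K730R, any replicate of LPS-treated TLR4-K730R, or replicate 1 or 2 of control TLR4-K810R (0.0101 to 0.0362). With no filter on low values neither call was made (0.0137 and 0.0152), nor was that of TLR4-WT with only the groups compared (0.0434). Without the 2 libraries that stood apart both calls were lost (log2 0.75 and 0.66, limma adjusted p = 0.0212 and 0.0407). The values of H2-K1 rest on its first exons, since its last exons were barely listed; on last exons alone the log2 difference was -0.034, -0.20 and -0.88.

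H2-D1 did not pass the test with LPS in any genotype. It was at 3110.0, 2921 and 3427 FPKM for TLR4-WT, 2726, 2879.8 and 2718 for TLR4-K730R and 2236, 2226 and 1885 for TLR4-K810R without LPS. LPS-treated libraries were at 2898, 2858 and 2644 FPKM for TLR4-WT, 2534, 2829 and 3081 for TLR4-K730R and 2456, 2296 and 2219 for TLR4-K810R. In TLR4-WT each LPS library lay below each control library, and in the mutants the treatments overlapped. The log2 difference was -0.17 (95% interval -0.40 to 0.064) in TLR4-WT, 0.017 (-0.22 to 0.25) for TLR4-K730R and 0.14 (-0.095 to 0.37) for TLR4-K810R, with limma adjusted p of 0.222, 0.912 and 0.337. Under median-ratio scaling these became 0.16, 0.42 and 0.41, with a changed sign in TLR4-WT, and none was called (0.377, 0.0200 and 0.0271). A p above the threshold does not show that H2-D1 was unaffected by LPS.

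Among the non-classical heavy chains, H2-Q4 rose in each genotype. It was at 50.5, 72.6 and 85.7 FPKM for TLR4-WT, 50.8, 64.8 and 44.5 for TLR4-K730R and 33.4, 30.2 and 32.7 for TLR4-K810R without LPS. Its LPS values were 342, 353 and 232 FPKM for TLR4-WT, 277, 249 and 358 for TLR4-K730R and 143, 201 and 194 for TLR4-K810R. TLR4-K810R libraries lay below those of TLR4-WT under both treatments, and TLR4-K730R overlapped TLR4-WT under both. The log2 rise was 2.14 ± 0.22, 2.44 ± 0.22 and 2.43 ± 0.22 (limma adjusted p = 7.65e-07, 1.70e-07 and 2.18e-07).

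H2-M2 gave the largest rise in both mutants. It was at 16.4, 17.7 and 15.7 FPKM for TLR4-WT, 5.20, 4.75 and 4.10 for TLR4-K730R and 1.45, 1.65 and 3.25 for TLR4-K810R without LPS. With LPS it was at 83.1, 91.1 and 87.3 FPKM for TLR4-WT, 98.0, 102.0 and 89.7 for TLR4-K730R and 81.1, 92.5 and 113 for TLR4-K810R. The 3 genotypes did not overlap without LPS, in the order TLR4-WT, TLR4-K730R and TLR4-K810R, and overlapped with LPS. The mean FPKM of H2-M2 was 5.25 times higher with LPS in TLR4-WT, 20.6 times for TLR4-K730R and 45.1 times for TLR4-K810R. The log2 difference was 2.32 ± 0.17, 4.10 ± 0.17 and 4.98 ± 0.17 (limma adjusted p = 2.33e-08, 3.46e-11 and 4.47e-12).

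H2-T23 did not pass the test with all libraries in the fit. It was at 311, 282 and 336 FPKM for TLR4-WT, 205, 213 and 200.1 for TLR4-K730R and 227, 221 and 156 for TLR4-K810R without LPS. With LPS it was at 505, 516 and 68.3 FPKM for TLR4-WT, 380.4, 385 and 549 for TLR4-K730R and 307, 372 and 372 for TLR4-K810R. In the mutants each LPS library lay above each control library, and in TLR4-WT replicate 3 with LPS lay below all 9 control libraries. The log2 difference was -0.24 ± 0.52 for TLR4-WT, 1.06 ± 0.52 for TLR4-K730R and 0.81 ± 0.52 for TLR4-K810R (limma adjusted p = 0.732, 0.101 and 0.227). Without that library the difference was 0.72, 1.06 and 0.81, and H2-T23 was called in each genotype (limma adjusted p = 0.00423, 7.1e-05 and 0.000887). With only the groups compared, which leaves TLR4-WT out of the fit for TLR4-K730R, it was called in TLR4-K730R (0.00229).

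**Figure D2:**
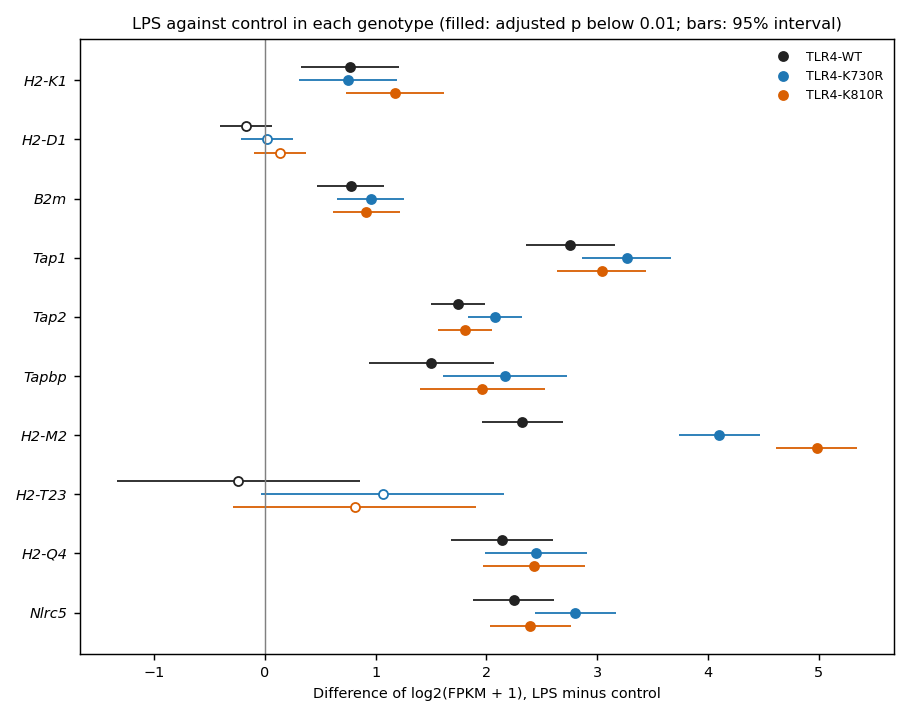
Difference of mean log2(FPKM + 1) between LPS and control libraries for each of the 10 genes in each genotype. Points are estimates from limma, filled where the adjusted p was below 0.01, and bars are 95% intervals. All points of H2-D1 lie between -0.17 and 0.14, and the points of H2-M2 are at 2.32, 4.10 and 4.98.

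The next question was whether the mutants differed from TLR4-WT before LPS. All 10 genes had a lower mean of log2(FPKM + 1) than TLR4-WT in TLR4-K730R and all 10 in TLR4-K810R, whereas 45.0% and 39.1% of all tested genes did. In TLR4-K730R, 8 of the 10 genes had all 3 libraries below all 3 of TLR4-WT, and in TLR4-K810R 9 of the 10, against 7.43% and 6.57% of all tested genes. The median log2 difference of the 10 genes was -0.45 and -0.64, against 0.026 and 0.066 over all genes. Most of these differences did not pass the test: 1 of the 10 genes was called in TLR4-K730R and 2 of the 10 in TLR4-K810R, where 0.242% and 0.652% of all genes were called lower. The mutants were compared with the same 3 TLR4-WT control libraries, so the 2 comparisons share them. With median-ratio scaling, all 10 genes were again lower in each mutant.

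H2-M2 was called in both mutants. It was lower by a log2 difference of -1.64 ± 0.17 in TLR4-K730R (limma adjusted p = 0.000158) and -2.54 ± 0.17 in TLR4-K810R (4.4e-07), which are 3.55-fold and 7.85-fold lower mean FPKM. The library values above show no overlap in either comparison. With only the groups compared, the call of H2-M2 in TLR4-K810R was lost (limma adjusted p = 0.0104). H2-D1 was the other gene called in TLR4-K810R, lower by a log2 difference of -0.58 ± 0.11 (limma adjusted p = 0.00711), with a mean of 2116 ± 199.8 FPKM (SD, n = 3) against 3152 ± 255 in TLR4-WT. That call was lost without any 1 library of the 3 control groups, TLR4-WT with LPS replicate 1, or TLR4-K810R with LPS replicate 2 or 3, 12 of the 18 libraries (limma adjusted p = 0.0106 to 0.0379). It was also lost with a pseudocount of 0.1, no filter on low values, only the groups compared and a replicate block (limma adjusted p = 0.0131, 0.0453, 0.141 and 0.0175). In TLR4-K730R, H2-D1 differed by -0.18 ± 0.11 (limma adjusted p = 0.786).

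Of the genes not called in TLR4-K810R, H2-Q4 lay nearest to the threshold. H2-Q4 differed from TLR4-WT by -1.06 ± 0.22 (limma adjusted p = 0.0106), B2m by -0.64 ± 0.14 (0.0182), H2-K1 by -0.79 ± 0.21 (0.0482) and Nlrc5 by -0.59 ± 0.17 (0.0762). Their control libraries did not overlap those of TLR4-WT. On last exons alone, which were barely listed for H2-K1, the difference of H2-K1 turned to 1.10. Without replicate 3 of LPS-treated TLR4-WT, H2-Q4 and B2m were also called (limma adjusted p = 0.00615 and 0.00731), and without replicate 1 of control TLR4-WT H2-Q4 was called (0.00651). Tap1 differed by -0.64 ± 0.19, Tapbp by -0.58 ± 0.26, H2-T23 by -0.64 ± 0.52 and Tap2 by -0.29 ± 0.11 (limma adjusted p = 0.0884, 0.337, 0.651 and 0.233). In TLR4-K730R the next gene after H2-M2 was Nlrc5, at -0.80 ± 0.17 (limma adjusted p = 0.0486), followed by Tap1 at -0.68 ± 0.19 (0.228) and B2m at -0.44 ± 0.14 (0.370). H2-K1 differed least in TLR4-K730R, by -0.018 ± 0.21 with overlapping libraries.

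Markers of other cells moved with genotype in the control libraries. The 6 markers of mesothelium and fibroblasts summed to 26.3 to 42.6 FPKM in control TLR4-WT, 50.1 to 57.9 for TLR4-K730R and 103 to 230.0 for TLR4-K810R, and 3, 3 and 5 of the 6 had a mean of 1 FPKM or more. The 5 markers of intestinal epithelium summed to 0.118 to 0.594 FPKM, 7.02 to 35.2 and 10.2 to 49.7, with 0, 4 and 4 of the 5 at a mean of 1 FPKM or more. Msln, which marks mesothelium, was at 0 in 8 of the 18 libraries. The 4 B cell markers with a value summed to 2.30 to 3.66 FPKM, 1.46 to 2.28 and 1.65 to 2.85, and Ms4a1 was at 0 in 14 of 18 libraries. The 4 mast cell markers summed to 2.74 to 3.17 FPKM, 0.071 to 1.69 and 0.37 to 2.21, with the control libraries of both mutants below those of TLR4-WT, and each marker was at 0 in 5 or more of the 18 libraries. The 5 neutrophil markers summed to 22.9 to 32.8 FPKM, 34.6 to 40.7 and 36.1 to 46.7, with the control libraries of both mutants above those of TLR4-WT. The macrophage markers summed to 13470.4 to 14785 FPKM, 13624 to 14742 and 11633 to 13949. The part of these markers in the lower class I levels was not tested.

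With LPS, 0 of the 10 genes were called in either mutant against TLR4-WT by limma. Over all tested genes 0.0% were called for TLR4-K730R and 0.137% for TLR4-K810R. At an unadjusted p below 0.05, 0 of the 10 genes differed for TLR4-K730R and 4 for TLR4-K810R, against 7.66% and 21.8% of all genes. The median log2 difference of the 10 genes was -0.017 for TLR4-K730R and -0.31 for TLR4-K810R, against -0.042 and 0.10 over all genes. Without the 2 libraries that stood apart, the median of the 10 genes in TLR4-K730R was -0.29, with 9 of the 10 below 0, and 0 of the 10 were called, while the calls over all genes went from 0 to 65 higher and 93 lower. In TLR4-K810R, 5 of the 10 genes (H2-D1, B2m, Tap2, H2-Q4 and Nlrc5) had all LPS libraries below those of TLR4-WT, against 7.94% of all genes. H2-Q4 differed by -0.77 (95% interval -1.23 to -0.31) and B2m by -0.50 (-0.80 to -0.20) in TLR4-K810R, with limma adjusted p of 0.0665 and 0.0702. Without those 2 libraries, both were called, at -0.97 and -0.64 (limma adjusted p = 0.00877 and 0.00337), while the calls over all genes in that comparison went from 5 higher and 8 lower to 366 and 208. The markers of mesothelium and fibroblasts summed to 39.2 to 123 FPKM in LPS-treated TLR4-WT, 43.2 to 43.6 for TLR4-K730R and 92.7 to 111 for TLR4-K810R, and their part in these differences was not tested. For H2-M2, the interval of the difference with LPS was -0.22 to 0.51 for TLR4-K730R and -0.25 to 0.48 for TLR4-K810R.

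**Figure D3:**
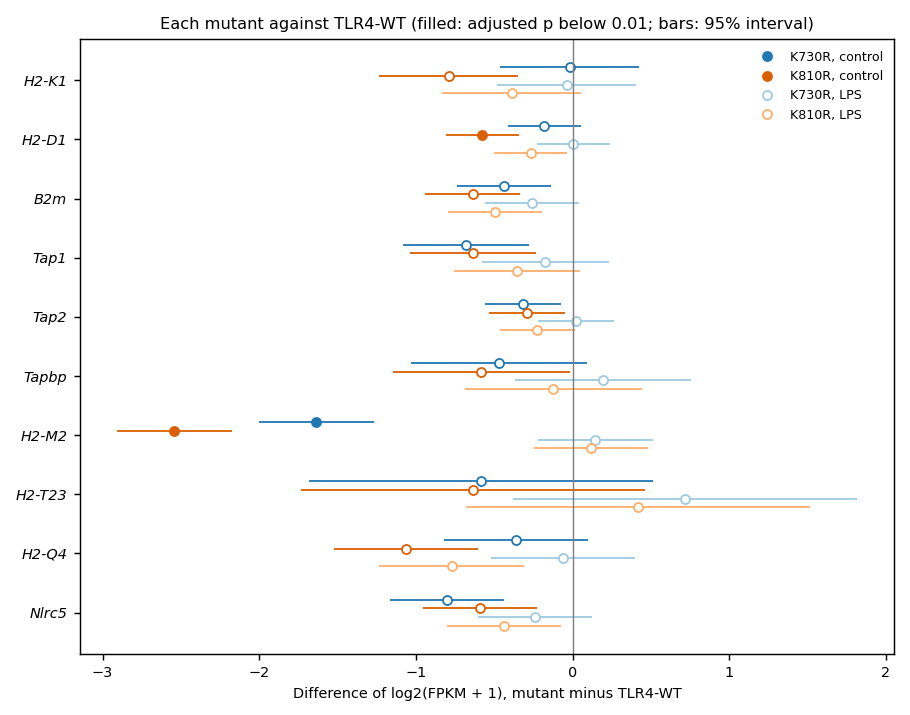
Difference of mean log2(FPKM + 1) between each mutant and TLR4-WT for the 10 genes, without LPS (dark) and with LPS (pale). Points are limma estimates, filled where the adjusted p was below 0.01, and bars are 95% intervals. All dark points lie below 0, with H2-M2 at -1.64 and -2.54, and no pale point is filled.

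The size of the LPS response was compared between genotypes by a test of the difference itself. H2-M2 was the 1 gene of the 10 called, with a log2 response larger by 1.78 ± 0.24 in TLR4-K730R (limma adjusted p = 0.00545) and by 2.66 ± 0.24 in TLR4-K810R (0.000121). Of all genes, 0.0421% and 0.126% were called. The response of H2-M2 in TLR4-K730R was no longer called without any 1 library of control or LPS-treated TLR4-WT or of LPS-treated TLR4-K730R, replicate 2 or 3 of control TLR4-K730R, or replicate 2 of LPS-treated TLR4-K810R, 12 of the 18 libraries (log2 1.70 to 1.83, adjusted p = 0.0121 to 0.0278). That call was also lost with a pseudocount of 0.1, no filter on low values, last exons only and a replicate block (limma adjusted p = 0.0163, 0.0111, 0.0288 and 0.0161). For the other 9 genes the difference of responses ranged from -0.021 for H2-K1 to 1.30 ± 0.73 for H2-T23 in TLR4-K730R, and from 0.067 for Tap2 to 1.05 ± 0.73 for H2-T23 in TLR4-K810R. Without the 2 libraries that stood apart, the difference for H2-T23 was 0.17 and 0.088, and that for the 9 genes was at most 0.47 (Tap1) and 0.42 (H2-K1), while H2-M2 was called in both mutants (1.83 and 2.66, limma adjusted p = 0.00832 and 0.000237). Nlrc5 in TLR4-K730R, at 0.56 (95% interval 0.045 to 1.07), had a limma adjusted p of 0.682. Both tests of the response share the TLR4-WT libraries, control and LPS.

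Across the 18 libraries, the log2 levels of the peptide pump and its transactivator lay close to one line, with Pearson's r of 0.984 between Tap1 and Tap2, 0.986 between Nlrc5 and Tap1 and 0.987 between Nlrc5 and Tap2. These correlations describe 18 libraries that share their treatment and genotype groups. H2-D1 and H2-T23 stood outside that set. H2-D1 had r of 0.0968 to 0.433 with the other 9 genes, the lowest with Tap1, and H2-T23 had r of 0.32 to 0.55, with its low library included. Of all tested genes, the 5 most like H2-M2 were Ifit3 (r = 0.987), Bst2 (0.985), Usp18 (0.983), H2-T24 (0.982) and Zbp1 (0.981). Ifit3, Bst2, Usp18 and Zbp1 are known interferon-stimulated genes, and H2-T24 is a non-classical class I heavy chain. The 5 most like Nlrc5 were Epsti1 (0.992), Phf11d (0.991), Olfr56 (0.990), Ms4a4c (0.990) and Cmpk2 (0.989).

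Other class I heavy chains were less uniform. Of 17 listed, 10 had a value and 8 were tested, and with LPS 4, 5 and 4 of the 8 rose in TLR4-WT, TLR4-K730R and TLR4-K810R while 3, 3 and 3 fell, against 10.4%, 9.34% and 8.99% of all genes called higher and 23.7%, 26.3% and 19.7% called lower. H2-T22, a ligand of gamma delta T cells, rose most, from 60.1 ± 3.7 to 410.1 ± 83.6 FPKM in TLR4-WT (SD, n = 3; log2 2.73 ± 0.15, limma adjusted p = 7.41e-10). H2-Q7, a Qa-2 heavy chain, rose by log2 2.40 ± 0.27, 2.62 ± 0.27 and 2.86 ± 0.27, and H2-T24 by 1.10 ± 0.16 for TLR4-WT, 2.23 ± 0.16 for TLR4-K730R and 2.31 ± 0.16 for TLR4-K810R. The 3 that fell in each genotype, Hfe being named after its values were seen, were Fcgrt, the neonatal Fc receptor, Mr1, which presents microbial metabolites, and Hfe, which acts in iron uptake. Fcgrt went from 12.8 ± 1.6 to 4.95 ± 0.39 FPKM for TLR4-WT, and Mr1 from 4.64 ± 1.69 to 1.46 ± 0.43. Under median-ratio scaling, 4, 5 and 5 of the 8 rose and 2, 3 and 2 fell, and without the 2 libraries that stood apart 2 fell in TLR4-WT, where Hfe was not called. Cd1d1, which presents lipids, was named after its values were seen and rose in TLR4-K730R (log2 0.92 ± 0.24, limma adjusted p = 0.00442).

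Without LPS, 1 of these 8 heavy chains was called lower for TLR4-K730R and 4 for TLR4-K810R, against 0.242% and 0.652% of all genes, and 0 were called higher. H2-T24 was lower in both, by -0.93 ± 0.16 (limma adjusted p = 0.00934) and -1.42 ± 0.16 (9.06e-05), with means of 26.3 ± 4.8 FPKM for TLR4-WT, 13.2 ± 0.7 for TLR4-K730R and 9.13 ± 1.33 for TLR4-K810R. H2-Q7 was lower in TLR4-K810R by -1.95 ± 0.27 (limma adjusted p = 0.000743), at 4.43 to 6.76 FPKM against 17.8 to 31.8. H2-T22 and H2-M3 were lower there by -0.90 ± 0.15 and -0.66 ± 0.11 (limma adjusted p = 0.00292 and 0.00408). H2-M3 presents formylated peptides. With LPS, limma called 0 of the 8 in either mutant (0 and 4 at an unadjusted p below 0.05, against 7.66% and 21.8% of all genes). In the tests of the response limma called 0 (3 and 2 at an unadjusted p below 0.05, against 7.02% and 13.1% of all genes). Without the 2 libraries that stood apart, H2-T22 and H2-Q7 were called lower in TLR4-K810R with LPS (-0.86 and -1.59). Over all genes, the calls lower in that comparison went from 8 to 208. H2-T24 was then called in the response of TLR4-K810R (1.20, limma adjusted p = 0.00695). There the calls over all genes went from 10 higher and 2 lower to 61 and 50.

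Genes that supply and load peptides responded to LPS in part. All 16 listed genes were tested, and 6, 6 and 5 rose in the 3 genotypes while 0 fell, against 10.4%, 9.34% and 8.99% of all genes called higher and 23.7%, 26.3% and 19.7% called lower. Without the 2 libraries that stood apart, 1 fell in each genotype, the chaperone Calr in TLR4-WT (log2 -1.03) and the aminopeptidase Lnpep in TLR4-K730R and TLR4-K810R (-0.71 and -0.60), named after their values were seen. Those that rose in TLR4-WT were the immunoproteasome subunits Psmb8, Psmb9 and Psmb10, the proteasome activator subunits Psme1 and Psme2, and the aminopeptidase Lap3, which was named after its values were seen. The immunoproteasome subunits went from 77.7 ± 18.2 to 283 ± 66 FPKM (Psmb8), from 21.8 ± 3.4 to 88.6 ± 22.9 (Psmb9) and from 63.5 ± 8.4 to 314 ± 22 (Psmb10) in TLR4-WT. Lap3 was the 1 of these 6 not called in TLR4-K810R (0.32 ± 0.19, limma adjusted p = 0.203, against 1.12 ± 0.19 in TLR4-WT), and the difference of the 2 responses was -0.80 ± 0.27 (adjusted p = 0.229). The other 10 genes, which include the chaperones Calr, Canx and Pdia3, did not pass the test with LPS in TLR4-WT. Between genotypes, limma called 0 of the 16 without LPS in TLR4-K730R and TLR4-K810R (2 and 1 at an unadjusted p below 0.05, against 7.80% and 14.1% of all genes) and 0 with LPS (1 and 4, against 7.66% and 21.8%).

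Of 22 listed regulators 20 were tested, and 8, 6 and 8 rose with LPS while 2, 2 and 1 fell, against the same shares of all genes. Under median-ratio scaling 8 rose in each genotype, and without the 2 libraries that stood apart 6, 6 and 8 rose and 2 fell in each. Irf7, an interferon regulatory factor that amplifies type I interferon, differed most between genotypes. It was at 74.6 to 139.7 FPKM in control TLR4-WT, 6.86 to 28.7 for TLR4-K730R and 13.0 to 18.3 for TLR4-K810R, and at 778 to 890 FPKM, 679.8 to 929.8 and 649 to 782 with LPS. Without LPS it was lower by -3.03 ± 0.36 for TLR4-K730R and -2.75 ± 0.36 for TLR4-K810R (limma adjusted p = 0.000368 and 0.000393). It was the 1 regulator called in either, where 0.242% and 0.652% of all genes were called lower. At an unadjusted p below 0.05, 4 and 7 of the 20 regulators differed, against 7.80% and 14.1% of all genes. Without the 2 libraries that stood apart, Stat2 was also called lower in both (log2 -1.13 and -0.83, limma adjusted p = 0.00209 and 0.00636), and in TLR4-K810R with LPS (-0.86, 0.00498). Over all genes, the calls lower went from 23 to 37 and from 62 to 93 without LPS. They went from 8 to 208 in TLR4-K810R with LPS. The responses of Irf7 differed from that of TLR4-WT by 3.01 ± 0.50 and 2.53 ± 0.50 (limma adjusted p = 0.0375 and 0.0341), above the threshold of 0.01. Stat2 and Irf1 rose in each genotype, in TLR4-WT by log2 2.44 ± 0.20 and 2.32 ± 0.26. In TLR4-WT, Ifngr1, a chain of the interferon-gamma receptor, and Ciita, the transactivator of MHC class II, fell. Ifngr1 went from 56.1 ± 14.5 to 18.3 ± 1.5 FPKM, and Ciita, named after its values were seen, changed by log2 -1.16 ± 0.27 (limma adjusted p = 0.00238).

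The files also list the level of alternative transcript forms. The genes and forms below were chosen after their values were seen; of several events of a kind, the 1 with the highest FPKM was taken. Shares below are compared between control and LPS within a genotype by a two-sided exact permutation test, which with 3 against 3 libraries cannot go below p = 0.1, and 24 such comparisons were made. Their smallest adjusted p was 0.343, so none passes a threshold.

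In 7 of the 9 control libraries, most of the Tap1 FPKM was listed with an intron retained (chr17:34192857-34192942). The retained form made up 87.5%, 46.9% and 91.9% of the FPKM of this event in control TLR4-WT, 86.3%, 88.5% and 83.9% for TLR4-K730R and 87.9%, 94.9% and 41.3% for TLR4-K810R. With LPS it made up 21.1%, 17.9% and 76.3% in TLR4-WT, 10.9%, 21.4% and 17.0% for TLR4-K730R and 13.8%, 89.1% and 72.0% for TLR4-K810R. The treatments did not overlap in TLR4-K730R and overlapped in the other genotypes. In TLR4-K730R the spliced form went from 1.90, 2.08 and 2.34 FPKM to 161, 97.1 and 145 FPKM, while the retained form went from 12.0, 15.9 and 12.2 to 19.6, 26.5 and 29.7 FPKM. In this genotype the exact permutation test of the share gave p = 0.1, the smallest it can give. An intron event of Tap2 (chr17:34212067-34212230), which was not matched by position to that of Tap1, was retained at 0% to 12.5% in all 18 libraries.

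The low H2-T23 value had a counterpart among its forms. In replicate 3 of LPS-treated TLR4-WT, 99.6% of the FPKM of an H2-T23 intron event (chr17:36031097-36031638) was in the retained form, at 68.0 FPKM against 0.265 FPKM spliced. In the other 17 libraries the retained form made up 0.542% to 5.05%, at 1.11 to 17.0 FPKM, and the spliced form was at 155 to 532 FPKM. That library thus had the highest retained form and by far the lowest spliced form. Tapbp in replicate 3 of LPS-treated TLR4-K730R, the highest value of that gene, was also the 1 library in which a last exon of Tapbp was listed, at 201 FPKM.

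First exons were used unequally in Tapbp and Nlrc5. Of the first-exon FPKM of Tapbp, an exon at chr17:33916171-33916273, upstream of the main one at chr17:33919332-33919724, held 11.2%, 9.72% and 10.2% in control TLR4-WT and 0.649%, 0.771% and 2.14% with LPS. In TLR4-K810R it held 10.5%, 9.60% and 20.7% without LPS and 1.77%, 1.20% and 1.59% with it, and in TLR4-K730R 0%, 10.5% and 11.1% and then 2.23%, 1.18% and 0.412%. The treatments did not overlap in TLR4-WT and TLR4-K810R and overlapped in TLR4-K730R. In TLR4-WT the FPKM of the exon itself went from 19.0 to 5.68 on average, while that of the main exon went from 157 to 515. For Nlrc5, the exon at chr8:94434356-94434433, at the annotated start of the gene, held 24.5%, 29.2% and 20.9% in control TLR4-WT and 7.29%, 9.35% and 5.17% with LPS. In the mutants the treatments overlapped, and the mean share went the other way. It went from 11.2% to 35.9% in TLR4-K730R and from 13.2% to 29.4% in TLR4-K810R. The share was 86.7% in replicate 3 of LPS-treated TLR4-K730R and at most 43.5% in the other mutant libraries.

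**Figure D4:**
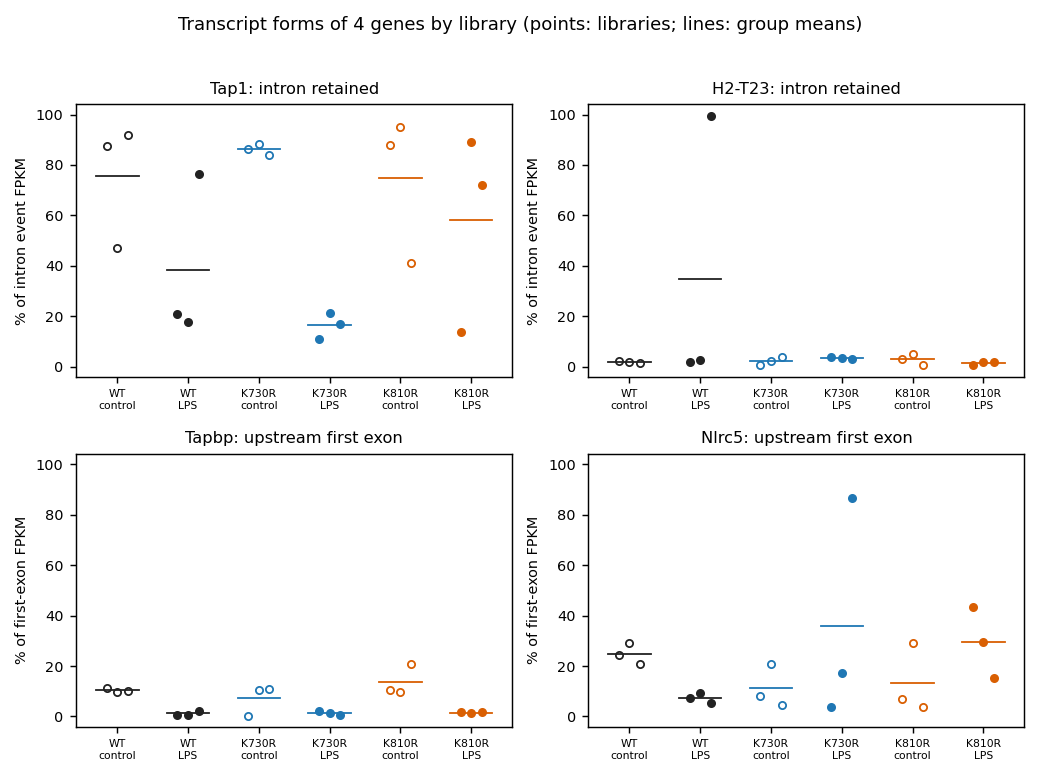
Share of the retained form in intron events of Tap1 and H2-T23, and share of first-exon FPKM in the upstream first exon of Tapbp and Nlrc5, in percent, for the 18 libraries. Points are libraries, lines are group means, open points are control libraries and filled points are LPS libraries. The Tap1 shares of TLR4-K730R lie at 83.9% to 88.5% without LPS and at 10.9% to 21.4% with it, and the lone high H2-T23 point is at 99.6%.

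H2-Q4 was listed with an exon (chr17:35383555-35383587) in some libraries and without it in others. The exon was included in 0% of the H2-Q4 FPKM in 6 of the 18 libraries and in 11.9% to 33.5% in the rest. The libraries at 0% were spread over all 6 groups, 1 in each.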

How the data were processed

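RNA sequencing was analysed for 18 libraries of mouse peritoneal macrophages, 3 in each of 6 groups given by the labels. The authors deposited, for each library, FPKM values per transcript event (first exons, last exons, retained introns and skipped exons), with Ensembl gene identifiers. The submitters' processing notes name the build hg18, which is human, but 92.8% of the events overlap their named gene in GRCm38, so positions are given in GRCm38. The aligner and its version are not given in the sources used here. The files hold no counts, so depth is unknown and no counting interval is given.

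For each gene, FPKM were summed over first exons and over last exons and the higher sum was used. Events off the strand of the gene or reaching past its GENCODE M21 bounds were dropped, which left out 8.26% of first-exon and last-exon FPKM. The filter kept the 9512 of 13393 genes that reached 1 FPKM in 3 or more libraries. log2(FPKM + 1), which understates the change of low genes, was fitted with limma 3.58.1 (R 4.3.3) with an intensity trend, all 6 groups in a single fit, and p-values were adjusted by Benjamini-Hochberg over all genes tested. The threshold was an adjusted p below 0.01. The procedure was tested on simulated data with independent noise. These held no library that stood apart and no shift over all genes, so the test does not cover such features. Tables and shares were computed with Python 3.11.15, pandas 2.3.3 and numpy 2.4.6. Alternatives were another pseudocount (0.1), other filters, median-ratio scaling, other event sets, only the groups compared, a replicate block, and each library left out. A further pair, events that overlap the gene and the removal of 2 libraries together, was chosen after seeing the data.

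The 10 genes and the gene lists were chosen with earlier results of these data known. All 10 genes are named, with up to 4 called genes of each list per comparison by size of the log2 difference, and the 5 genes most correlated with H2-M2 and with Nlrc5.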

Additional observations from a re-analysis of the deposited data

Results flagged for a closer look

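The LPS response of H2-M2 differed between genotypes by a test of the difference itself, with a log2 response larger than that of TLR4-WT by 1.78 in TLR4-K730R and by 2.66 in TLR4-K810R. The call in TLR4-K730R was lost when any of 12 of the 18 libraries was left out (limma adjusted p = 0.0121 to 0.0278). The LPS groups of the 3 genotypes overlapped in H2-M2, and the control groups did not.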

How the results depend on the processing

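Over 29 alternative settings, the 10 genes gave 2601 values, of which 2533 kept their direction where called and their side of the threshold, 51 lost a call, 12 gained a call and 5 reversed. The count of class I genes called in TLR4-K810R without LPS, 2, became 1 with a pseudocount of 0.1, 1 with no filter on low values, 0 with only the groups compared, and 4 without the 2 libraries that stood apart, and ranged from 1 to 4 with each library left out. In TLR4-K810R with LPS it went from 0 to 2 without those 2 libraries. For the response of TLR4-K730R, the 1 called gene, H2-M2, was lost (0 called) with a pseudocount of 0.1, with no filter, and on last exons only, and the count ranged from 0 to 1 with each library left out. The LPS difference of H2-K1 reversed on last exons only (-0.034, -0.20 and -0.88 in TLR4-WT, TLR4-K730R and TLR4-K810R), where its last exons were barely listed. The LPS difference of H2-T23 in TLR4-WT ranged from -0.73 to 0.72 with each library left out, with the call and the reversal coming when the third LPS library of that genotype was absent, and was 0.72 without the 2 libraries. With each library left out, the called genes numbered 7 to 8, 7 to 9 and 8 to 9 for LPS in the 3 genotypes. They numbered 6 in each genotype on last exons only, 6, 9 and 8 with only the groups compared, and 7, 7 and 8 with no filter. Over all genes, the calls without the 2 libraries went from 6 higher and 23 lower to 9 and 37 in TLR4-K730R without LPS, from 89 and 62 to 115 and 93 in TLR4-K810R without LPS, from 4 and 0 to 16 and 15 in the response of TLR4-K730R, and from 10 and 2 to 61 and 50 in that of TLR4-K810R. Unless stated, the cause was not tested.

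Replicate numbers did not pair the libraries: over 45 pairs of libraries that share a number between groups, the correlation of deviations ran from -0.31 to 0.10. A fit with the replicate number as a block called 1 class I gene in TLR4-K810R without LPS and 0 in the response of TLR4-K730R, and changed no other call. The unknown depth limits what can be said of low values such as Nlrc5 and H2-M2 without LPS.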
